A study of Drosophila melanogaster with 24 samples.

Results

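The zygotic patterning genes of the early Drosophila melanogaster embryo were followed through the life cycle: the gap genes hb, Kr, kni, gt and tll, the pair-rule genes ftz, eve and run, and the homeobox genes cad and zen. Members were taken by gene symbol, as all probes that the platform annotation gives to 1 of these 10 genes. Of the 10 genes, 9 had a probe and run had none listed. The 9 genes had 11 probes, 3 of them for eve, among 23808 probes on the array, of which 13455 carried 1 of 11663 distinct gene symbols, 153 carried several and 10200 carried none.

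Total RNA of 8 stages was compared on 2-colour glass arrays with RNA of 0-4 h embryos, the common control on every array. The stages were 4-8 h, 8-12 h and 12-16 h embryos, a pool of larval stages, pupal stages 1, 2 and 3, and young adults of both sexes. No genotype, strain, treatment or tissue was named. Each stage had 3 arrays called a, b and c, of which array c of pupal stage 1 held the signal of 1 channel in place of a ratio and was not used, leaving 23 arrays. The 2 arrays of pupal stage 1 that remained both carried the stage in Cy5, whereas every other stage was measured in both dye orientations, so each fitted value of pupal stage 1 is the mean of its arrays minus the dye term of the probe. Values are log2 ratios, the stage over 0-4 h embryos, after centring the array on its median, so that -1 stands for a level that is 1/2 of that in 0-4 h embryos relative to the other probes of the array. Values per array are given in the order a, b, c. Where all arrays of 1 stage are said to lie below those of another, this describes the values and is no test. The share of all probes with such a gap is not given. Fitted values are the stage coefficients of limma across all 23808 probes, with a dye term, as estimate ± SE, and a probe passed the test at a Benjamini-Hochberg adjusted p below 0.05.

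Segmentation runs from broad to fine. Maternal gradients set the broad domains of the gap genes, gap proteins place the stripes of the pair-rule genes, and pair-rule proteins place the segment polarity genes that keep the segment borders. Most of these genes are switched on when the zygotic genome is activated in the blastoderm, hb and cad are also loaded into the egg by the mother, and many are used again later in neuroblasts, the gut or the imaginal tissues. cad and zen are homeobox genes that are neither gap nor pair-rule genes: cad patterns the posterior and later the gut, and zen the dorsal extraembryonic tissue.

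Some arrays stood apart. On arrays a and b of 4-8 h embryos, a of 8-12 h embryos and a of larvae, the interquartile range over probes was 0.83 to 1.00, against 1.05 to 2.20 on the other 19 arrays, so the results for these stages are also given without those 4 arrays. The median SD of duplicate spots was above 0.5 on 5 arrays, a and b of 12-16 h embryos, b of larvae, a of pupal stage 1 and c of adults. Arrays a and b of pupal stage 2 (r = 0.904 over probes) and of pupal stage 3 (r = 0.892) were the most alike. Of the stage markers, all 7 late-embryo cuticle probes were higher at 12-16 h (median 6.61) and at most 3 in any other stage. All 7 larval probes were higher in larvae (median 5.95), but so were 6 in pupal stage 1 (median 6.61), 3 and 5 in pupal stages 2 and 3 and 4 in adults. All 4 flight and adult muscle probes were higher in pupal stages 2 and 3 and in adults. The yolk protein probes of adult females were higher in adults and also in pupal stage 2, and did not pass in pupal stage 3. Of all probes, 1.49%, 3.83% and 16.8% were higher in the 3 embryonic stages and 8.76% in larvae. In pupal stages 1, 2 and 3 the share was 7.58%, 9.3% and 9.53%, and in adults 15.2%. Whether the arrays of a stage came from separate animals was not stated, so each p-value covers array-to-array spread alone, possibly a technical one, and the small number of arrays limits the precision.

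Most of the patterning probes were lower in the later stages than in 0-4 h embryos. Of 253 array values, 216 lay below 0. Of 88 fitted values, 50 were called lower and 1 was called higher, for cad in pupal stage 2. In RNA of animals not split by tissue, fewer cells that express a gene and less RNA of it in each cell cannot be told apart.

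Against the background of all probes, the counts were as follows. In 4-8 h embryos 5 of 11 member probes were lower (all probes: 5.94%), in 8-12 h embryos 2 (5.71%) and in 12-16 h embryos 3 (12.5%). Larvae had 8 of 11 lower (14.7%), pupal stage 1 had 8 (16.2%; without the dye term 3, hb, Kr and ftz), pupal stage 2 had 6 (16%), pupal stage 3 had 8 (19.5%) and adults had 10 (19.2%). In pupal stage 2, 1 of 11 was higher (9.3%). In the 7 other stages 0 were higher, where the share over all probes was 1.49%, 3.83% and 16.8% in the embryonic stages, 8.76% in larvae, 7.58% and 9.53% in pupal stages 1 and 3 and 15.2% in adults. The median of the 11 fitted values was -1.04, -0.71 and -0.45 in the 4-8 h, 8-12 h and 12-16 h embryos, -1.07 in larvae, -1.36, -0.90 and -1.42 in pupal stages 1, 2 and 3, and -1.78 in adults. Over all probes the medians lay between 0.00 and 0.08. The share of member probes with every array of a stage below 0 was 9, 7 and 6 of 11 in the 3 embryonic stages (all probes: 20.4%, 20.9% and 21.4%), 9 in larvae (25.4%), 9, 8 and 9 in the 3 pupal stages (36.6%, 29.2% and 29.7%) and 9 in adults (30.0%).

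The early stages rested on few arrays. Without the 4 arrays that stood apart, 0 member probes passed at 4-8 h, where 1 array remained and was assumed to vary like the arrays of the other stages, and 0 at 8-12 h, and in larvae hb and Kr passed. A call lost in this way has fewer arrays behind it, so the loss alone does not show a smaller change. The fitted values moved both ways. At 4-8 h the fitted value of cad was -2.22 with array c alone, against -1.79 with all 3. The fits of ftz, kni and zen gave smaller changes than with all 3. These fits include the dye term, and array c carried the stage in Cy3. Before that term, array c itself read lower than the fit with all 3 for each of these genes, such as -2.73 for cad and -1.88 for ftz. Differences between pupal stage 1 and the other stages were not recomputed without the dye term. With the 4 arrays as a block of their own, 1 passed at 4-8 h and 4 in larvae. At 4-8 h the count was 0 without array c. Centring also set the balance of calls, since the deposited arrays were not centred. Uncentred, the median over all probes was 0.65, -0.97 and -1.60 in the 3 embryonic stages in their order, -1.08 in larvae, -1.42, -1.76 and -0.37 in the pupal stages and -0.49 in adults. Of all calls, the share that was higher was then 83.3%, 1.82% and 4.46% in the embryonic stages, 2.69% in larvae, 1.96%, 1.59% and 9.59% in the pupal stages and 22.6% in adults. With centring these shares were 20.1%, 40.1%, 57.3%, 37.3%, 31.9%, 36.8%, 32.8% and 44.3%.

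**Figure D1:**
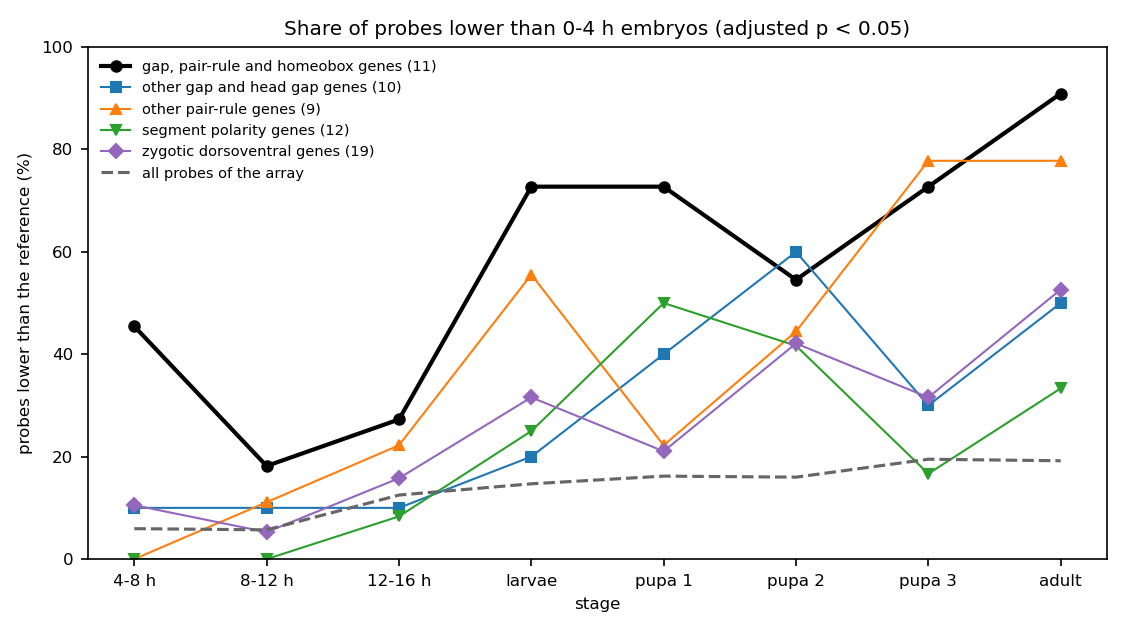
Share of probes lower than 0-4 h embryos at an adjusted p below 0.05 (y axis, percent) in each stage (x axis), for the 11 gap, pair-rule and homeobox probes (black), 4 other patterning lists with their number of probes, and all 23808 probes (dashed). The 11 probes lie above all probes in every stage, with 10 of 11 lower in adults.

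Of the gap genes, hb had the lowest values within embryogenesis. hb encodes a zinc finger protein that patterns the anterior and thorax and later gives neuroblasts and their progeny an early temporal identity. It read -1.09, -0.38 and -1.95 at 4-8 h, -1.95, -2.41 and -1.73 at 8-12 h and -4.12, -4.32 and -5.05 at 12-16 h. The 3 arrays at 12-16 h lay below all 6 of the younger embryos. Larvae read -1.21, -3.26 and -4.53, pupal stage 1 -5.26 and -2.91, pupal stage 2 -4.41, -4.08 and -1.02, pupal stage 3 -3.48, -2.98 and -3.79 and adults -2.78, -3.76 and -4.28. All 23 arrays were below 0, and the spread was widest in larvae and pupal stage 2, where array a and array c were the high ones. On both of those arrays the duplicate spots of hb were apart, with an SD of 1.19 and 1.74.

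The fitted value of hb was -1.35 ± 0.50 at 4-8 h, which did not pass (adjusted p = 0.114), -2.23 ± 0.50 at 8-12 h (adjusted p = 0.00636) and -4.29 ± 0.50 at 12-16 h (adjusted p = 1.68e-06). At 12-16 h it was thus 19.6-fold lower than in 0-4 h embryos, at percentile 0.248 of all probes, and no other member was as low at that stage. It was 26.1-fold lower in pupal stage 1 by the fit (-4.70, adjusted p = 2.92e-05; -4.08 without the dye term) and 6.94- to 12.3-fold lower in larvae, pupal stages 2 and 3 and adults. Between stages, hb was lower at 12-16 h than at 4-8 h by -2.95 ± 0.71 (adjusted p = 0.0109, 10.6% of all probes called in that contrast). It was also lower in pupal stage 1 than at 4-8 h by -3.36 ± 0.79 (adjusted p = 0.0184, 4.66% of all probes called). The call at 8-12 h was lost without array a (-2.07, adjusted p = 0.0583) or without array c (-2.18, adjusted p = 0.0594), and without the 4 arrays that stood apart (adjusted p = 0.0755).

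Kr encodes the zinc finger protein of the central gap domain and later acts in muscle, the nervous system and the Malpighian tubules. Its arrays read 0.16, -0.02 and -0.85 at 4-8 h, -0.37, -1.69 and -0.92 at 8-12 h and -2.28, -2.15 and -1.52 at 12-16 h. Larvae read -1.90, -2.77 and -4.10 and the pupal stages -5.21 and -4.13, then -4.05, -3.29 and -1.18, then -2.71, -3.12 and -4.94. Kr was near the level of 0-4 h embryos at 4-8 h, and both arrays of pupal stage 1 lay below every embryonic array. Adults read -3.54, -3.10 and 0.87, so 2 arrays were far below 0 and array c was above it.

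The fitted value of Kr was -0.39 ± 0.63 at 4-8 h and -1.14 ± 0.63 at 8-12 h, neither of which passed. It was -1.83 ± 0.63 at 12-16 h (adjusted p = 0.0328), -2.78 ± 0.63 in larvae (adjusted p = 0.00295) and -5.12 ± 0.80 in pupal stage 1 (adjusted p = 0.000119). That is 34.7-fold lower than in 0-4 h embryos, at percentile 0.0756 of all probes. Pupal stages 2 and 3 had -2.69 ± 0.63 and -3.74 ± 0.63. Pupal stage 1 had the lowest fitted value of Kr, with or without the dye term (-4.67 without it). Pupal stage 1 was below 4-8 h embryos by -4.73 ± 1.00 (adjusted p = 0.00903), below 8-12 h embryos by -3.98 ± 1.00 (adjusted p = 0.0311, 3.63% of all probes called) and below 12-16 h embryos by -3.29 ± 1.04 (adjusted p = 0.0474, 10.7% called). Pupal stage 3 was below 4-8 h embryos by -3.35 ± 0.88 (adjusted p = 0.0273, 5.71% called). The adult value of -1.77 ± 0.63 (adjusted p = 0.0333) turned on single arrays: it was -3.32 without array c, -1.34 without array b (adjusted p = 0.213) and -0.39 without array a (adjusted p = 0.722). The SD of the duplicate spots of Kr was 1.33, 2.85 and 0.76 on the adult arrays. The calls at 12-16 h and in pupal stage 2 were also lost without single arrays of those stages, at adjusted p between 0.0528 and 0.14.

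kni, gt and tll moved less. kni encodes a zinc finger protein of the nuclear receptor type that patterns the abdomen. It read -0.56, -0.95 and -1.57 at 4-8 h, -0.10, -0.91 and 0.17 at 8-12 h and -0.86, -0.09 and -0.07 at 12-16 h. Larvae read -0.86, -0.88 and -1.81, and the pupal stages -0.94 and -0.50, then -1.69, -1.41 and 0.24, then -0.96, -1.03 and -2.27, with adults at -1.05, -2.24 and -1.05. The arrays of 8-12 h and of pupal stage 2 fell on both sides of 0, and those of the other stages were below it. kni was lower in 5 stages, with fitted values of -1.18 ± 0.31 at 4-8 h (adjusted p = 0.0213), -1.03 ± 0.31 in larvae, -1.17 ± 0.39 in pupal stage 1, -1.57 ± 0.31 in pupal stage 3 (adjusted p = 0.000534) and -1.29 ± 0.31 in adults (adjusted p = 0.00231). It was lower in pupal stage 3 than at 12-16 h by -1.38 ± 0.44 (adjusted p = 0.036, 16.4% of all probes called).

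gt encodes a leucine zipper protein with an anterior and a posterior domain. Its arrays read -0.40, -0.23 and -1.26 at 4-8 h, 0.45, -1.12 and 0.34 at 8-12 h and -1.17, -0.31 and -0.55 at 12-16 h. Larvae read -0.26, -1.24 and -1.73, the pupal stages -1.39 and -0.84, then -1.01, -1.89 and -0.31, then -0.07, -0.94 and -2.51, and adults -1.37, -2.51 and -2.33. None of the embryonic stages passed, and all 11 pupal and adult arrays were below 0. gt was lower in larvae by -0.88 ± 0.31, in the 3 pupal stages by -1.69 ± 0.39, -0.88 ± 0.31 and -1.36 ± 0.31, and in adults by -1.88 ± 0.31 (adjusted p = 7.36e-05), where it was 3.68-fold lower. Adults were below 8-12 h embryos by -1.58 ± 0.44 (adjusted p = 0.028, 8.21% of all probes called) and below 12-16 h embryos by -1.40 ± 0.43 (adjusted p = 0.0326, 15.3% called), with no overlap of the arrays.

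tll encodes an orphan nuclear receptor that patterns both ends of the embryo under Torso signalling and later the optic lobe. It read -0.82, -0.34 and -0.81 at 4-8 h, -0.998, -0.40 and 0.01 at 8-12 h and -0.51, 0.47 and -0.38 at 12-16 h. Larvae read 0.28, -1.49 and -1.25, the pupal stages -1.01 and -1.11, then -1.58, -1.36 and -0.68, then -0.57, -0.50 and -0.99, and adults -0.93, -2.45 and -2.25. At 12-16 h the arrays fell on both sides of 0. tll was lower in pupal stage 1 (-1.36 ± 0.42, adjusted p = 0.0226), in pupal stage 2 (-1.11 ± 0.33, adjusted p = 0.0157) and in adults (-1.78 ± 0.33, adjusted p = 0.000254), and did not pass in 5 stages. Adults were below 12-16 h embryos by -1.73 ± 0.46 (adjusted p = 0.0146). The values of pupal stage 1 moved with the dye term: without it kni was at -0.72, gt at -1.11 and tll at -1.06, and none of the 3 passed (adjusted p = 0.353, 0.177 and 0.118). Several other calls hung on 1 array. Leaving out single arrays of the stage ended those of kni at 4-8 h, in larvae and in pupal stage 1, of gt in larvae and all 3 pupal stages, and of tll in pupal stages 1 and 2, with adjusted p up to 0.325, while the adult calls of all 3 genes held. Without the 4 arrays that stood apart, kni at 4-8 h (-1.06, adjusted p = 0.539) and kni and gt in larvae (-0.83 and -0.91, adjusted p = 0.194 and 0.163) did not pass.

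**Figure D2:**
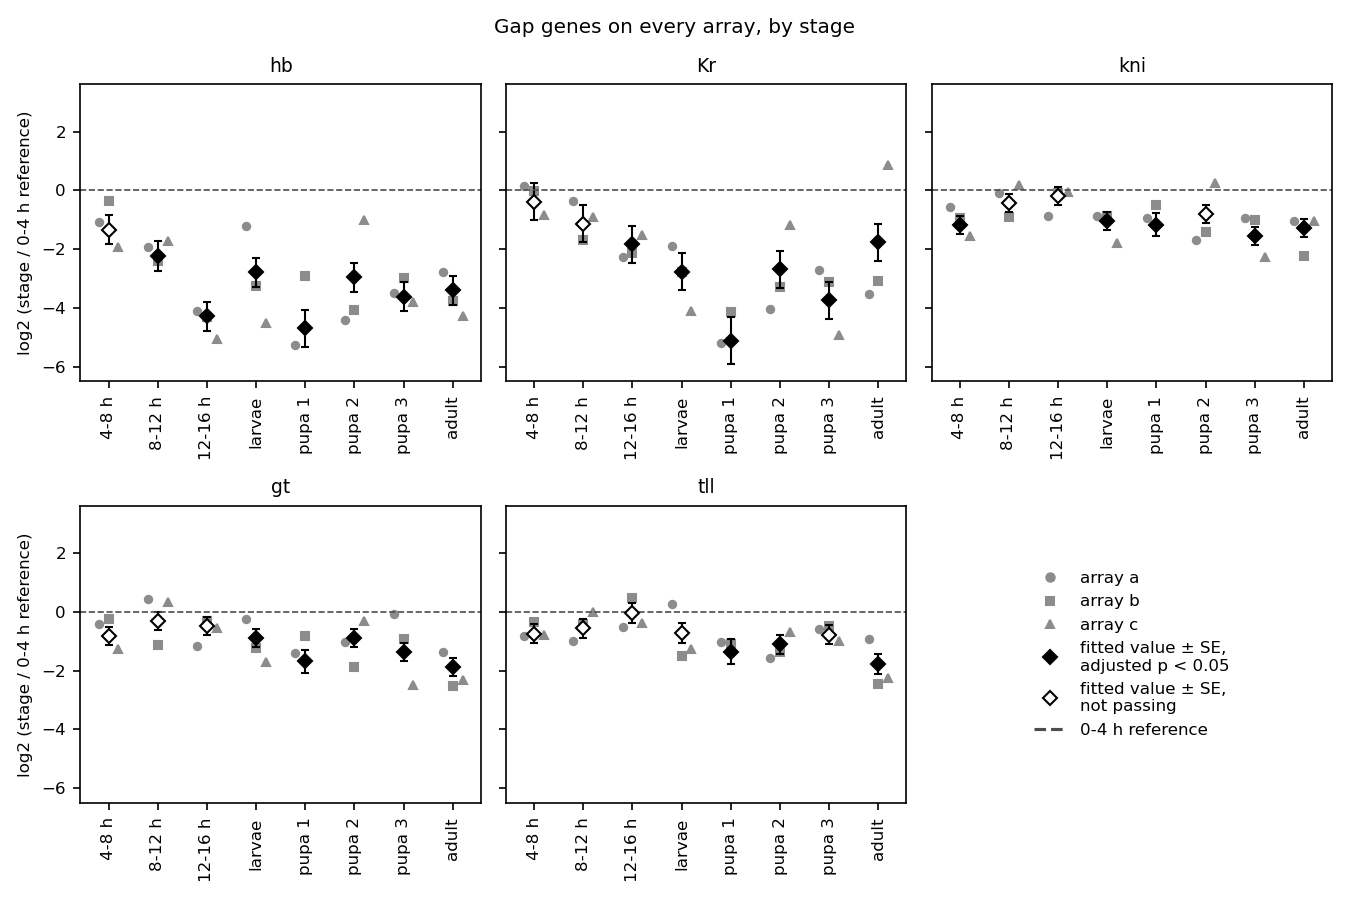
log2 ratio of stage over 0-4 h embryos (y axis) for the 5 gap genes in the 8 stages (x axis), with each array as a grey point and the fitted value ± SE as a diamond, filled where the adjusted p was below 0.05. The fitted values of hb and Kr in pupal stage 1, measured in 1 dye orientation, are -4.70 and -5.12, while kni, gt and tll stay between -1.88 and -0.04.

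Of the pair-rule genes, ftz was below the level of 0-4 h embryos on all 23 arrays. ftz encodes a homeodomain protein expressed in alternate parasegments, whose gene lies among the Hox genes of the Antennapedia complex. It read -1.01, -1.81 and -1.88 at 4-8 h, -1.74, -1.87 and -0.71 at 8-12 h and -6.02, -1.62 and -2.46 at 12-16 h. Array a at 12-16 h was far below the others, and its duplicate spots had an SD of 3.42. Larvae read -0.93, -1.97 and -2.77, the pupal stages -3.35 and -2.18, then -3.43, -3.30 and -1.41, then -2.73, -2.36 and -2.89, and adults -2.74, -3.68 and -3.96. The adult arrays lay below those of 4-8 h and 8-12 h embryos without overlap.

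ftz was lower in 7 of 8 stages. The fitted value was -1.74 ± 0.52 at 4-8 h (adjusted p = 0.0468) and -1.62 ± 0.52 at 8-12 h, which did not pass (adjusted p = 0.0563). It was -3.19 ± 0.52 at 12-16 h (adjusted p = 8.62e-05), -1.72 ± 0.52 in larvae (adjusted p = 0.0214), and -3.28 ± 0.67, -2.54 ± 0.52 and -2.83 ± 0.52 in the 3 pupal stages. In adults it was -3.29 ± 0.52 (adjusted p = 5.59e-05), which is 9.76-fold lower. No pair of stages differed for ftz at the threshold, and the F-test over the 8 stages gave an adjusted p of 0.247. The call at 4-8 h was lost without any of the 3 arrays of that stage, at adjusted p between 0.144 and 0.272, and that in larvae without any of the 3 larval arrays, at adjusted p between 0.0556 and 0.149. In pupal stage 1 it was lost without array a (adjusted p = 0.0774). Without the 4 arrays that stood apart, ftz did not pass at 4-8 h (-1.29, adjusted p = 0.695) or in larvae (-1.78, adjusted p = 0.104).

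eve, a homeobox pair-rule gene whose stripes divide the embryo and which later marks heart cells and neurons, had 3 probes, and they did not read alike. Probe 2 read -0.62, -0.87 and -1.26 at 4-8 h, -0.56, -1.05 and -0.15 at 8-12 h and -1.05, 0.04 and 0.29 at 12-16 h. Its larvae read -1.07, -1.33 and -1.65, its pupal stages -0.76 and -0.38, then -1.05, -0.93 and -0.02, then -1.28, -1.15 and -2.61, and its adults -1.27, -1.78 and -1.64. It was lower at 4-8 h (-1.04 ± 0.27, adjusted p = 0.0195), in larvae (-1.22 ± 0.27), in pupal stage 1 (-0.94 ± 0.34, adjusted p = 0.0491), in pupal stage 3 (-1.80 ± 0.27, adjusted p = 3.07e-05) and in adults (-1.44 ± 0.27, adjusted p = 0.000266). At 12-16 h its arrays fell on both sides of 0, and pupal stage 3 and adults lay below them by -1.69 ± 0.38 (adjusted p = 0.00575) and -1.33 ± 0.37 (adjusted p = 0.0208).

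Probe 3 read -0.62, -0.02 and -1.35 at 4-8 h, -0.16, -0.83 and -0.43 at 8-12 h and -2.19, 0.02 and 0.03 at 12-16 h. Its larvae read -0.49, -1.38 and -1.70, its pupal stages -1.31 and -1.09, then -1.51, -1.21 and -0.33, then -1.36, -1.47 and -1.05, and its adults -1.23, -2.02 and -2.01. It was below 0 on 21 of 23 arrays and lower in larvae (-1.07 ± 0.34), in pupal stages 1 and 3 (-1.57 ± 0.43 and -1.42 ± 0.34) and in adults (-1.63 ± 0.34, adjusted p = 0.000749). Probe 1 went another way and was above 0 on 17 of 23 arrays. It read -2.66, 0.54 and 2.06 at 4-8 h, 0.02, -0.72 and -0.02 at 8-12 h, 0.86, -0.57 and 3.17 at 12-16 h and 1.21, -0.42 and 1.59 in larvae. The pupal stages read 0.58 and 0.83, then 0.34, 2.57 and -0.83, then 0.91, 0.63 and 2.77, and adults 0.25, 1.99 and 0.89, and the probe passed in 0 of 8 stages.

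The duplicate spots of the probes also differed. The median SD of duplicates was 0.683 for probe 1, 0.0678 for probe 2 and 0.175 for probe 3, and it reached 1/3 or more on 16, 0 and 5 of the 23 arrays. Over the 23 arrays, which share the 0-4 h control, probes 2 and 3 had r = 0.666, probes 1 and 2 had r = -0.341 and probes 1 and 3 had r = -0.244. Leaving out any 1 of the 3 arrays of 4-8 h ended the call of probe 2 there, and leaving out any 1 of the 3 larval arrays that of probe 3 in larvae, at adjusted p between 0.0572 and 0.155. Without the 4 arrays that stood apart, probes 2 and 3 were at -1.04 and -1.24 in larvae and did not pass (adjusted p = 0.0588 and 0.0814). In pupal stage 1 both calls were lost without either array of that stage, and without the dye term (-0.57 and -1.20, adjusted p = 0.401 and 0.101). Which transcripts each probe matches was not examined, so eve is given by probe.

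**Figure D3:**
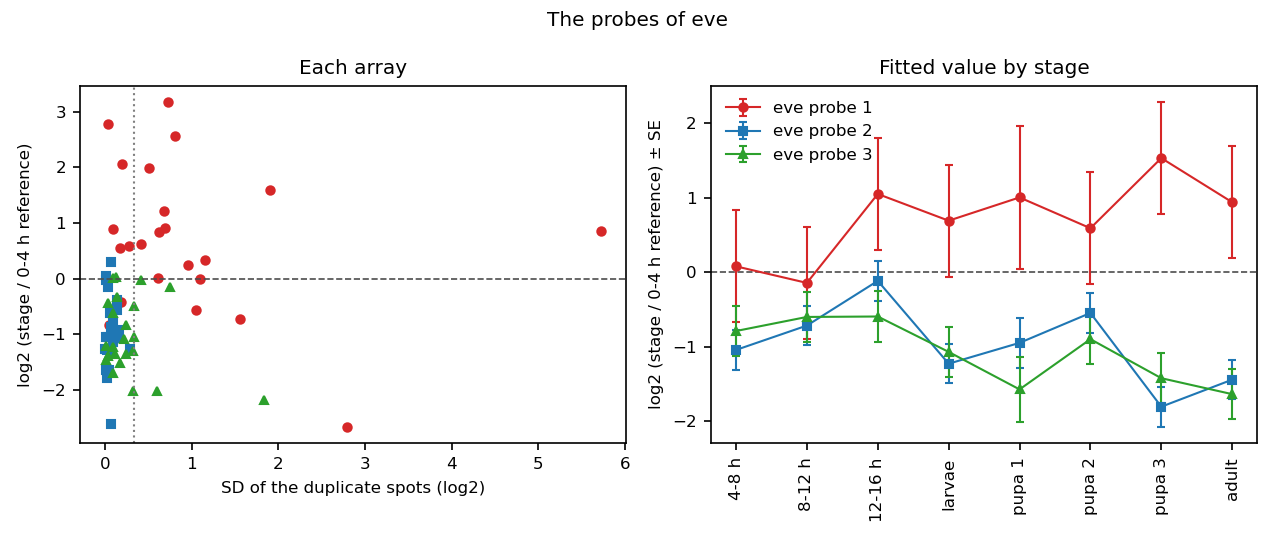
The 3 probes of eve. Left, the log2 ratio on each of the 23 arrays (y axis) against the SD of the duplicate spots (x axis, log2), with the limit of 1/3 dotted. Right, the fitted value ± SE by stage. Probe 1 has wider duplicates and lies above probes 2 and 3 in every stage.

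cad and zen differed between more pairs of stages than the other members, with 7 of 28 pairs each. cad encodes a homeodomain protein of the ParaHox type that is maternal as well as zygotic and forms a posterior gradient. It read -0.91, -1.27 and -2.73 at 4-8 h, -0.60, -1.32 and -0.06 at 8-12 h and -1.16, -0.20 and -0.44 at 12-16 h. Larvae read -1.04, -1.17 and -0.84. The embryonic and larval arrays were all below 0. The pupal stages read -0.12 and 0.90, then 1.06, 0.19 and 1.19, then 1.47, 0.67 and -0.53, and adults -1.53, -3.16 and -2.87. Of the 8 pupal arrays 6 were above 0, while the adult arrays were all below every pupal array.

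cad was lower at 4-8 h by -1.79 ± 0.34 (adjusted p = 0.0026), which is 3.46-fold, and in adults by -2.36 ± 0.34 (adjusted p = 1.77e-05), which is 5.15-fold. It was higher in pupal stage 2 by 0.97 ± 0.34 (adjusted p = 0.0402), and the other stages did not pass, with fitted values between -0.86 and 0.38. Pupal stage 2 stood above 4-8 h embryos by 2.76 ± 0.48 (adjusted p = 0.00168, 4.68% of all probes called) and above larvae by 1.83 ± 0.47 (adjusted p = 0.0489, 2.03% called). Adults stood below pupal stage 2 by -3.33 ± 0.47 (adjusted p = 0.000553, 1.94% called), below pupal stage 1 by -2.29 ± 0.56 (adjusted p = 0.0224, 4.23% called) and below 12-16 h embryos by -1.91 ± 0.47 (adjusted p = 0.00981). Pupal stage 3 stood above 4-8 h embryos by 2.17 ± 0.47 (adjusted p = 0.00828). The sign in pupal stage 2 depended on centring: without it the value was -0.79 (adjusted p = 0.203), as the deposited medians of these arrays were not at 0 and shifted all probes of the stage by -1.76. The call there was lost without any of its 3 arrays (0.69 to 1.13, adjusted p between 0.0812 and 0.313). At 4-8 h it was lost without array c (-1.49, adjusted p = 0.0927). Without the 4 arrays that stood apart, which leaves 1 array of 4-8 h, the fitted value there was -2.22.

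zen, whose homeodomain protein specifies the amnioserosa, read -1.80, -1.41 and -1.71 at 4-8 h, -2.74, -1.76 and -1.06 at 8-12 h and -1.29, -0.24 and 0.28 at 12-16 h. Larvae read -1.92, -0.77 and -1.66, the pupal stages -0.59 and -0.93, then -2.45, -3.42 and -2.89, then -1.68, -1.11 and -0.48, and adults -3.08, -4.13 and -3.71. The 3 adult arrays were below the arrays of every stage other than pupal stage 2, and pupal stage 2 was below the pupal stages on either side of it. The duplicates of zen were wide, with an SD of 1/3 or more on 15 of 23 arrays.

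zen was lower at 4-8 h (-1.65 ± 0.37, adjusted p = 0.00919) and at 8-12 h (-1.86 ± 0.37, adjusted p = 0.00277), and did not pass at 12-16 h (-0.41 ± 0.37) or in pupal stage 1 (-0.78 ± 0.48). It was lower in larvae (-1.44 ± 0.37), in pupal stage 2 (-2.91 ± 0.37, adjusted p = 9.64e-06), which is 7.52-fold, in pupal stage 3 (-1.10 ± 0.37, adjusted p = 0.0319) and in adults (-3.63 ± 0.37, adjusted p = 3.91e-07), which is 12.4-fold. The adult value lay at percentile 0.55 of all probes, and of the 11 probes zen was the lowest in adults. Adults stood below 12-16 h embryos by -3.22 ± 0.52 (adjusted p = 0.000289), below pupal stage 1 by -2.85 ± 0.62 (adjusted p = 0.00976) and below larvae by -2.19 ± 0.52 (adjusted p = 0.0161, 4.93% of all probes called). They also stood below 4-8 h embryos by -1.98 ± 0.53 (adjusted p = 0.0194, 9.95% called) and below 8-12 h embryos by -1.77 ± 0.53 (adjusted p = 0.0435). Pupal stage 2 stood below 12-16 h embryos by -2.50 ± 0.52 (adjusted p = 0.0054, 7.54% called). With values of wide duplicates set to missing, the calls at 4-8 h (-0.84, adjusted p = 0.317), 8-12 h (-0.49, adjusted p = 0.587) and pupal stage 3 (-1.10, adjusted p = 0.146) were lost. Without the 4 arrays that stood apart, zen did not pass at 4-8 h (-1.55, adjusted p = 0.361), 8-12 h (-1.41, adjusted p = 0.082) or in larvae (-1.05, adjusted p = 0.134). Leaving out 1 array of the stage ended the calls at 4-8 h (a or c), at 8-12 h (a), in larvae (a or c) and in pupal stage 3 (a or b), at adjusted p between 0.0612 and 0.254, while those of pupal stage 2 and adults held.

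**Figure D4:**
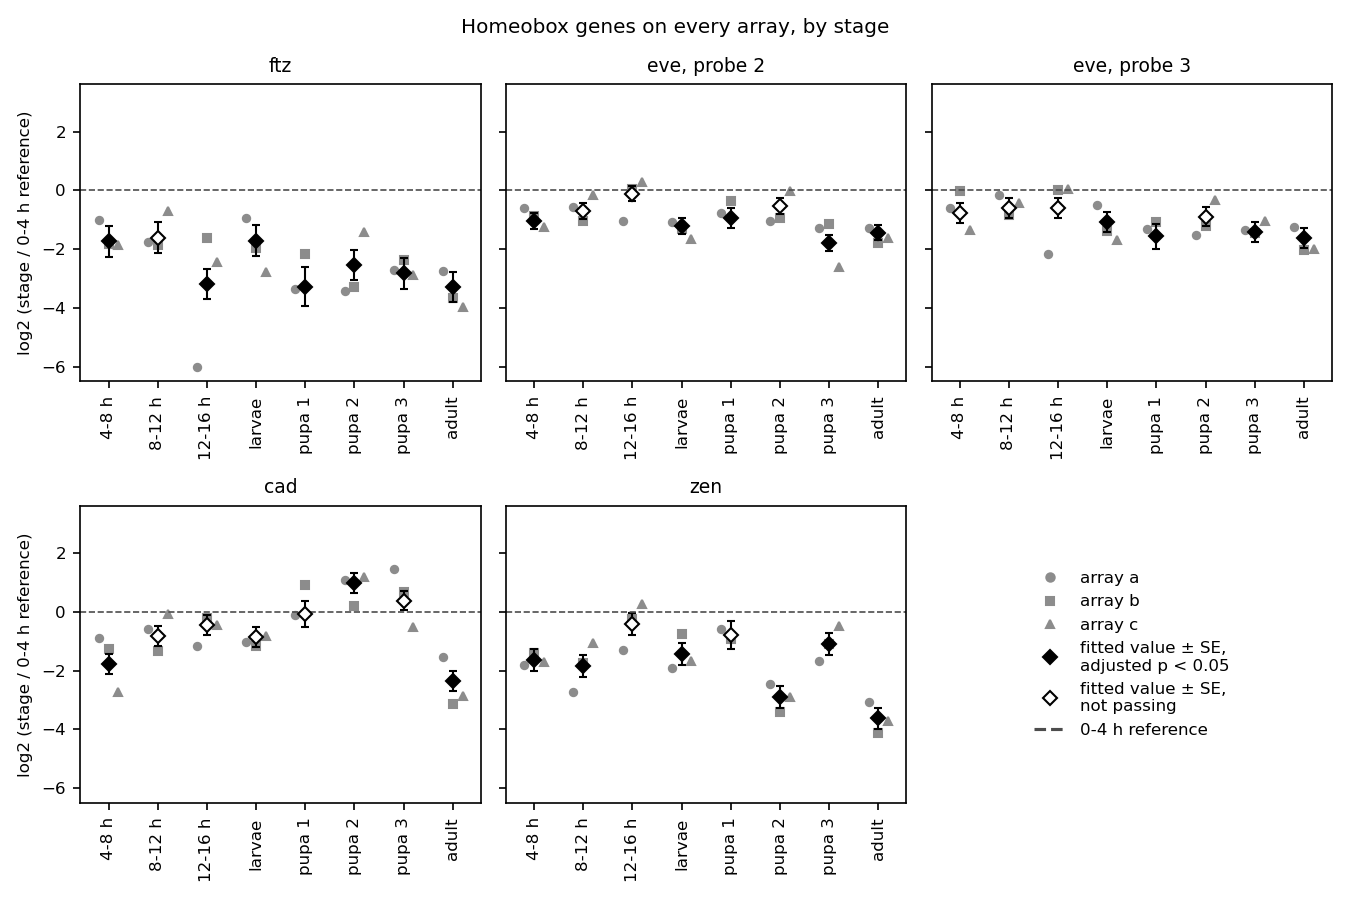
log2 ratio of stage over 0-4 h embryos (y axis) for ftz, eve probes 2 and 3, cad and zen in the 8 stages (x axis), drawn as grey points per array and diamonds for the fitted value ± SE, filled where the adjusted p was below 0.05. cad is above 0 in pupal stages 2 and 3 and falls to -2.36 in adults, and zen reaches -2.91 in pupal stage 2 and -3.63 in adults.

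Between neighbouring stages little passed. Adults against pupal stage 3 gave 2 of 11 member probes (all probes: 1.18%). These were cad, lower in adults by -2.75 ± 0.48 (adjusted p = 0.00648), and zen, lower by -2.54 ± 0.53 (adjusted p = 0.0206). For both genes the 3 adult arrays lay below the 3 arrays of pupal stage 3. The difference of zen did not pass without array b or c of either stage (adjusted p between 0.0673 and 0.151), and that of cad passed without any 1 array (adjusted p up to 0.0465). Without centring neither passed (adjusted p = 0.333 for cad and 0.488 for zen), nor after scaling the arrays to a common spread (adjusted p = 0.0537 and 0.267). The 6 other steps gave 0 of 11, where the share of all probes was 0.0126% for 8-12 h against 4-8 h, 5.11% for 12-16 h against 8-12 h, 10.2% for larvae against 12-16 h, 0.995% for pupal stage 1 against larvae, 0.638% for pupal stage 2 against pupal stage 1 and 0.34% for pupal stage 3 against pupal stage 2.

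Over the 28 pairs of stages, which were added after earlier results were seen, cad and zen each differed in 7, Kr in 4, hb, gt and eve probe 2 in 2 each, kni and tll in 1 each, and ftz and eve probes 1 and 3 in 0. When the 8 stages were put in order of level for each probe, 0 of the 7 neighbours in that order differed for any of the 11 probes. For hb and Kr, 4-8 h embryos stood highest, then 8-12 h embryos. Pupal stage 1 stood lowest for Kr. For hb the lowest place depended on the dye term: pupal stage 1 was at -4.70 and 12-16 h at -4.29 with it, and -4.08 and -4.50 without it. For zen, kni, tll and eve probes 2 and 3, 12-16 h embryos stood highest. Adults stood lowest for cad, zen, gt, tll and eve probe 3, and for ftz adults and pupal stage 1 were level (-3.29 and -3.28).

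In the F-test over the 8 stages, 5 of 11 probes passed (all probes: 21%). These were cad (adjusted p = 0.000541), zen (adjusted p = 0.00214), Kr (adjusted p = 0.02), hb (adjusted p = 0.0286) and eve probe 2 (adjusted p = 0.038). The other probes had an adjusted p between 0.0789 for gt and 0.853 for eve probe 1. The dye term passed for cad, hb, kni, gt and eve probe 2, at 0.37 to 0.62, and for 3632 of all 23808 probes. Without that term the count of member probes in the F-test was 3.

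The probes most like each of these 5 over the 8 stage values, all 8 of which share the 0-4 h control, were sought among 3726 probes of other genes that passed the F-test. For cad they were sr (r = 0.943), which encodes a tendon cell zinc finger protein, CG13739 (r = 0.934) and br (r = 0.923), an ecdysone response gene. For hb they were Kdm4A (r = 0.996), a histone demethylase gene, Pxt (r = 0.973) and Phf7 (r = 0.972), and for Kr they were gry (r = 0.986), Ptpmeg (r = 0.980) and Rrp5 (r = 0.976). For eve probe 2 they were CG15240 (r = 0.976), Deaf1 (r = 0.971) and lark (r = 0.969). zen had the lowest values of these 5, with Zip88E, CARPB and Cyp313a4 at r = 0.860 to 0.869 over the stages. Over the 23 arrays these 3 had r = 0.556 to 0.628 with zen. On that measure gry and Ptpmeg had 0.671 and 0.701 with Kr, and Pxt had 0.695 with hb. Over the 23 arrays, 0 other probes of the array reached r = 0.8 with zen. At that limit eve probe 2 had 531 companions (2.23% of probes), kni 524 (2.2%), gt 317 (1.33%), hb 82, eve probe 3 65, ftz 12, Kr 11, cad 10, tll 3 and eve probe 1 had 1.

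Other genes of the segmentation cascade were set beside these. Of all probes, 5.94%, 5.71% and 12.5% were lower in the embryonic stages and 14.7% in larvae. In the pupal stages 16.2%, 16% and 19.5% were lower, and in adults 19.2%. The counts of the lists below are to be read beside these shares. The other gap and head gap genes, with 10 probes of 8 genes, had 1 probe lower in each embryonic stage, 2 in larvae, 4, 6 and 3 in the pupal stages and 5 in adults. Their adult median was -0.73. At 12-16 h the count was 10% of the list, under the 12.5% of all probes, and in larvae it was 20%, against 14.7%. In adults hkb, a gap gene of the embryo's ends, had -1.94 ± 0.40 and btd, a head gap gene, -1.42 ± 0.28. fkh, a forkhead gene of the gut and salivary gland, was higher at 12-16 h (0.73 ± 0.26).

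The list of other pair-rule genes also held genes set beside them, among these Ten-m, drm and sob. It had 9 probes, as h and slp1 had none listed. Of the 9 probes, 0, 1 and 2 were lower in the embryonic stages, 5 in larvae, 2, 4 and 7 in the pupal stages and 7 in adults. Their median was 0.04 at 4-8 h and -1.35 in adults. At 12-16 h prd (-2.66 ± 0.55) and opa (-1.89 ± 0.53), genes for a paired-domain and a zinc finger protein, were lower. The 2 probes that were higher at that stage (all probes: 16.8%) were both of Ten-m, a teneurin of the cell surface (1.26 and 1.24). In adults opa (-2.89 ± 0.53) and prd (-2.45 ± 0.55) were again the lowest. ftz-f1, the nuclear receptor that works with ftz, was lower in larvae, pupal stage 3 and adults (-1.48 ± 0.35).

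Segment polarity genes, which act after the pair-rule genes, had 12 probes. Of these, 0, 0 and 1 were lower in the embryonic stages, 3 in larvae, 6, 5 and 2 in the pupal stages and 4 in adults. At 12-16 h and in pupal stage 3 that was 8.33% and 16.7%, under the 12.5% and 19.5% of all probes. None of the 12 was higher at 4-8 h, at 8-12 h, in larvae or in pupal stage 3 (all probes: 1.49%, 3.83%, 8.76% and 9.53%). In pupal stage 1, 2 of the 12 were higher (7.58%), and in pupal stage 2, 1 (9.3%). Their median was 0.43 at 4-8 h, -1.49 in pupal stage 1 and -0.92 in adults. In pupal stage 1 nkd (-2.48 ± 0.57), a gene for an antagonist of Wingless signalling, and smo (-2.37 ± 0.71) were the lowest. The 2 probes of mid went opposite ways there, at 1.06 ± 0.37 (adjusted p = 0.0417) and -1.86 ± 0.54 (adjusted p = 0.0154), so mid is in both counts. At 12-16 h 4 were higher (all probes: 16.8%), among them H15 (1.92 ± 0.40) and a probe of mid (1.89), both T-box genes, and the lower one was smo of the Hedgehog pathway (-3.18 ± 0.56). The 4 lower in adults included smo (-2.84 ± 0.56) and ptc (-2.62 ± 0.51). In adults 1 probe of mid was higher (0.78, all probes: 15.2%), while the other did not pass (-1.03, adjusted p = 0.066).

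The zygotic dorsoventral genes had 19 probes, of which 2, 1 and 3 were lower in the embryonic stages, 6 in larvae, 4, 8 and 6 in the pupal stages and 10 in adults. Their adult median was -1.46, and 1 probe of the BMP ligand scw was at -2.24, beside twi at -2.22 ± 0.37, the mesoderm regulator. At 8-12 h the count of lower probes was 5.26% of the list, near the 5.71% of all probes. Ance, a peptidase gene of the amnioserosa, was higher in all 3 embryonic stages (1.91 ± 0.34, 2.10 ± 0.34 and 2.13 ± 0.34).

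Regulators of these genes were mixed. zld, whose protein opens the zygotic genome for transcription, did not pass at 4-8 h (-0.93 ± 0.31) and was lower in the 7 later stages, down to -2.79 ± 0.31 in adults. Over the whole list of genome activation and maternal regulators, 1, 2 and 3 of 13 probes were lower in the embryonic stages, 6 in larvae, 2, 4 and 4 in the pupal stages and 8 in adults. In pupal stage 1 that was 15.4%, near the 16.2% of all probes. In each of 12-16 h embryos, larvae, pupal stage 2 and adults 1 probe was higher (all probes: 16.8%, 8.76%, 9.3% and 15.2%). Both corepressor probes, gro and CtBP, were lower at 12-16 h, in larvae, in pupal stages 1 and 2 and in adults, while in pupal stage 3 CtBP was lower and gro did not pass. The 4 probes of sex-counting genes had 0, 0 and 2 lower in the embryonic stages, 4 in larvae, 4, 3 and 3 in the pupal stages and 4 in adults.

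zen and ftz lie in the Antennapedia complex on the right arm of chromosome 3. The 8 genes with a probe in its stretch from pb to Antp did not move as a block. In the order of the RefSeq annotation (assembly Release 6) these are pb, zen2, zen, Ama, Dfd, Scr, ftz and Antp. In that stretch bcd and CG34297 had no probe listed, and the Hox gene lab had none either. Of the 64 fitted values of the 8 genes, 50 were below 0. Ama, a gene for an immunoglobulin-type adhesion protein between zen and Dfd, was higher at 4-8 h (2.06 ± 0.33) and lower from 12-16 h on, down to -4.50 ± 0.33 in adults. zen2, a neighbouring paralogue of zen, was lower in pupal stages 1 and 2 (-1.62 in each), and its adult value of 1.14 ± 0.45 did not pass (adjusted p = 0.0575). The Hox genes pb, Dfd, Scr and Antp had 1, 0 and 0 of 4 lower in the embryonic stages (all probes: 5.94%, 5.71% and 12.5%), 1 in larvae (14.7%), 3, 2 and 3 in the pupal stages (16.2%, 16% and 19.5%) and 3 in adults (19.2%). Antp was the one lower at 4-8 h (-1.14 ± 0.28) and in larvae, and the adult values were Antp at -1.66 ± 0.28, pb at -1.61 ± 0.44 and Scr at -1.21 ± 0.28.

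**Figure D5:**
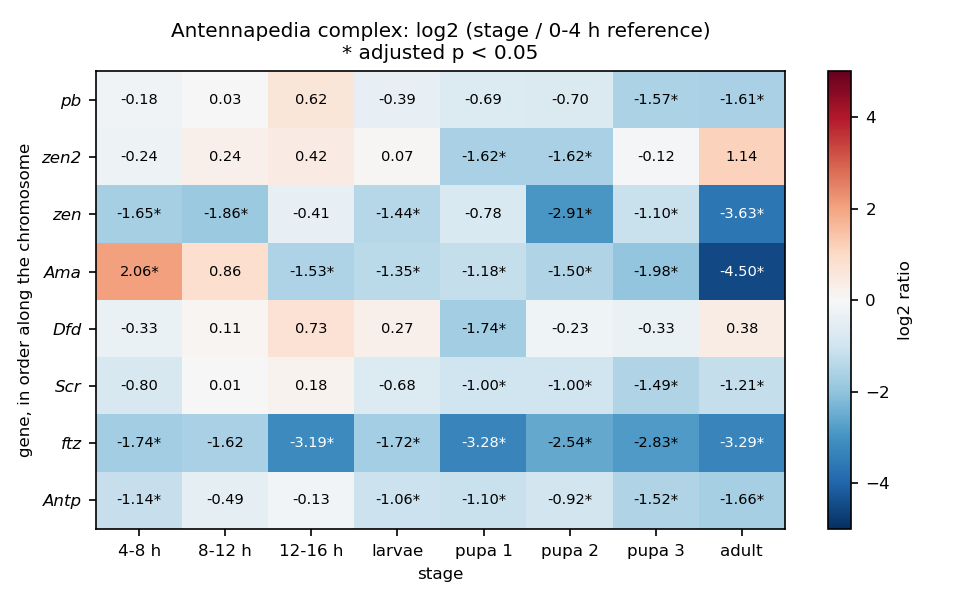
Fitted log2 ratio of stage over 0-4 h embryos (colour and number, asterisk where the adjusted p was below 0.05) for the 8 genes with a probe from pb to Antp in the Antennapedia complex, in order along the chromosome (rows), in the 8 stages (columns). zen, ftz and Antp are below 0 in every stage, while Ama is 2.06 at 4-8 h and -4.50 in adults.

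Markers of the gonads and of egg yolk also moved between stages. Of the 8 egg and ovary probes, 4 were of Yp1, Yp2 and Yp3, yolk protein genes used by female fat body and follicle cells. These 4 were higher in adults (3.52 to 6.22, all probes: 15.2%) and in pupal stage 2 (1.82 to 4.39, all probes: 9.3%), and passed in none of the other 6 stages. The other 4, of the germline genes dhd, exu, osk and otu, were lower in all 8 stages, at -4.63, -0.83, -3.21 and -3.40 in adults. Of all probes, between 5.71% and 19.5% were lower, depending on the stage. Of the 7 testis probes, 1, 1 and 0 were higher in the embryonic stages (all probes: 1.49%, 3.83% and 16.8%), 3 in larvae (8.76%), 5, 5 and 3 in the pupal stages (7.58%, 9.3% and 9.53%) and 4 in adults (15.2%). At 12-16 h 1 of them, of Mst98Ca, was lower (-1.41 ± 0.35, all probes: 12.5%). The part of these markers in the values of cad and zen was not tested. Of the 6 probes of embryonic nervous system genes, 0, 2 and 4 were higher in the embryonic stages, 0 in larvae, 1, 2 and 0 in the pupal stages and 3 in adults. The shares of all probes called higher are those given for the testis probes. The probe of repo was lower at 4-8 h (-1.19), in larvae (-0.95), in pupal stage 3 (-1.26) and in adults (-1.38). In these stages 5.94%, 14.7%, 19.5% and 19.2% of all probes were lower.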

How the data were processed

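Per the labels' protocols, the authors scanned the slides with ScanArray 3.1 and took spot ratios with GenePix 4.0. What they deposited was a log2 value of Cy5 over Cy3 per spot (47616 spots, each probe spotted in duplicate), with the base read from the values themselves. Hybridizations had been kept by the spread of duplicates, per the labels; which background correction or normalization came before is not given in the sources used here. Signs were turned where the stage carried Cy3. The 633 extreme values (0.0578%) at the ends of the deposited scale were dropped, arrays were median-centred, and duplicates were averaged per probe, giving 23808 probes. Array c of pupal stage 1 held whole-number signal and was left out.

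limma 3.58.1 in R 4.3.3 was fitted on all probes (lmFit, eBayes) with 8 stage coefficients and a dye term per probe (14 residual degrees of freedom), with an F-test over the differences between stages, and was tested on simulated data. p-values were adjusted over all probes by Benjamini and Hochberg, with a threshold of 0.05. Alternatives covered centring, scaling, the dye term, blocks, duplicate spots, arrays left out and a threshold of 0.01. Dropping arrays with wide duplicates and comparing all 28 pairs of stages were added after seeing the data. Symbols came from the platform annotation, current names and gene order from RefSeq. Members, lists and arrays that stand apart were chosen with earlier results of these data known. From each list the text names at most the 2 highest and 2 lowest passing probes of a stage. Named besides are zld, ftz-f1, Ance, drm, sob, both probes of mid and the genes of the Antennapedia complex. Likeness was taken among probes of 1 symbol measured on all arrays that passed the F-test, as the 3 highest correlations over stages.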

Additional observations from a re-analysis of the deposited data

Results flagged for a closer look

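The step between pupal stage 3 and adults gave the only passing differences between successive stages among the 11 probes, by a limma contrast of the difference itself. cad was lower in adults than in pupal stage 3, by -2.75 on the log2 scale (adjusted p = 0.00648), with -1.53, -3.16 and -2.87 on the adult arrays and 1.47, 0.67 and -0.53 on those of pupal stage 3. zen was lower by -2.54 (adjusted p = 0.0206), with -3.08, -4.13 and -3.71 on the adult arrays and -1.68, -1.11 and -0.48 on those of pupal stage 3.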

How the results depend on the processing

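Of the 51 values called lower or higher, 21 passed in the same direction under each alternative that gave a value, which was 35 alternatives, or 34 for hb in pupal stages 1 and 2, where close duplicates only left no value: cad, zen, kni, gt, tll, ftz and eve probes 2 and 3 in adults, hb in adults, at 12-16 h and in the 3 pupal stages, ftz at 12-16 h and in pupal stages 2 and 3, Kr in pupal stages 1 and 3, kni and eve probe 2 in pupal stage 3, and zen in pupal stage 2. Over all alternatives, 1574 of 1780 such values passed in the same direction, 205 did not pass and 1 changed sign, cad in pupal stage 2 without centring (-0.79). The counts of member probes that moved by over 1.5 times were these. Without centring, 0 passed at 4-8 h, 6 at 8-12 h, 10 at 12-16 h and 0 between adults and pupal stage 3. Of all 23808 probes, 198, 3084 and 14518 then passed in the embryonic stages. With centring, 1414 were lower and 355 higher at 4-8 h, and 2973 were lower and 3996 higher at 12-16 h. With arrays scaled to a common spread, 4 passed at 8-12 h, 5 in pupal stage 1, 3 in the F-test and 0 between adults and pupal stage 3. Without the dye term, 2 passed at 4-8 h, 3 in pupal stage 1 and 3 in the F-test, where all probes gave 643, 3687 and 3335. With the 4 arrays that stood apart as a block, 1 passed at 4-8 h, 4 in larvae and 3 in the F-test, and without them 0 at 4-8 h, 0 at 8-12 h, 2 in larvae and 2 in the F-test. With pupal arrays a and b averaged, 4 passed in pupal stage 2, 3 in the F-test and 1 between adults and pupal stage 3. With close duplicates only, 8 passed at 4-8 h, 4 at 8-12 h, 5 in pupal stage 1, 2 between larvae and 12-16 h, 1 between pupal stage 1 and larvae, 1 between pupal stages 3 and 2 and 1 between adults and pupal stage 3. All probes gave 3476 at 4-8 h, 3298 at 8-12 h and 3674 in pupal stage 1 in that setting. Each stage alone, with no dye term, gave 0 at 4-8 h, 1 at 8-12 h, 0 in larvae and 2 in pupal stage 1. All probes gave 16, 521, 0 and 730 in the same stages. At an adjusted p below 0.01, 2 passed at 4-8 h, 4 in larvae, 4 in each of pupal stages 1 and 2, 2 in the F-test and 1 between adults and pupal stage 3. Without the arrays of wide duplicates, chosen after seeing the data, 5 passed at 8-12 h, 5 in pupal stage 1 and 1 between 12-16 h and 8-12 h. Leaving out 1 array gave 0 to 5 at 4-8 h, 0 to 3 at 8-12 h, 3 to 9 in larvae, 2 to 8 in pupal stage 1, 3 to 9 in pupal stage 2, 3 to 6 in the F-test, 0 to 1 between 12-16 h and 8-12 h, 0 to 1 between larvae and 12-16 h, and 1 to 2 between adults and pupal stage 3. The causes of these shifts were not tested. With the array letter as a replicate block, 86 of 88 values kept their call, and cad in pupal stage 2 was 0.97 (adjusted p = 0.0512). The letters did not pair the arrays: 77 pairs of arrays with the same letter had a median correlation of deviations of 0.00348, and 6 of 23 arrays correlated best with one of their own letter.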

Other observations

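Array c of pupal stage 1 held 1 channel on a log2 scale in place of a ratio. On it 10 of the 11 probes lay between 8.45 and 8.99, at percentiles from 13.2 for tll to 70.4 for zen. The array's median was 8.72 and its lowest value 8.05, so these probes were also near the lower end. gt lay at 10.8, at percentile 96.1 of the probes. These are values of 1 array with no control, and they entered no comparison.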
